A study of Mus musculus with 2 samples.

Results

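The cells described here are C1q macrophages of the mouse aorta with few or no transcripts of 4 genes of resident aortic macrophages, called the low class below. They were taken from 2957 kept cells (at least 200 genes and at most 10% of counts from mitochondrial genes) of 2986 cell barcodes. Members were thus chosen by UMI counts in these same libraries. A cell entered when C1qa, C1qb and C1qc together had at least 5 unique molecular identifiers (UMIs, each 1 captured transcript), the T cell genes Cd3d, Cd3e and Cd3g at most 2, the B cell genes Cd79a, Cd79b and Ms4a1 at most 2, and Lyve1, Folr2, F13a1 and Cbr2 at most 1. The low class held 118 cells, and the 140 C1q macrophages with 2 or more UMIs of the last 4 genes, the resident-type class, were the main comparison. All mice were ApoE-/- C57BL6/J, on a chow diet in 1 group and on WD, as the labels write it, in the other. Every mouse lacked Apoe, so no group with the intact gene was compared, and the labels give neither the age nor the sex of the mice. Viable CD45+ leukocytes were sorted from enzymatically digested atherosclerotic aortas, 10 aortas were pooled for each diet, and each pool gave 1 library made with the 10x Genomics 3' v2 chemistry, so no spread between mice can be read.

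C1q is the recognition part of the classical complement pathway, and macrophages are its main source in many tissues. The aortic wall holds long-lived resident macrophages, which carry the hyaluronan receptor Lyve1 and the folate receptor Folr2, and in atherosclerosis monocytes from the blood enter the wall and become further macrophages. Macrophages that carry lipid in the lesion are known for the lipid receptor Trem2, the tetraspanin Cd9, the secreted matrix protein osteopontin (Spp1) and the membrane glycoprotein Gpnmb. Other lesion macrophages are known for cytokines such as Il1b.

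The chow diet library kept 896 cells and the WD library 2061, with a median of 3747.5 and 3191 UMIs per cell. The low class was deeper than that, with medians of 6543 and 5375 UMIs and 1824 and 1641 genes, and also deeper than the resident-type class, whose medians were 5815.5 and 4681.5 UMIs. Summed over its cells the low class held 145708 chow diet and 544121 WD UMIs, so 1 UMI stood for 6.86 and 1.84 CPM (the UMIs of a gene scaled to 1000000 UMIs of the class). Both libraries shared 3 barcodes, of which 0 were in the low class. Scrublet, a doublet caller, marked 5 kept cells, 0 of them in the low or resident-type class, and 0.0970% of the WD cells, so it cannot be taken to have found the doublets.

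The low class carried general macrophage genes. Csf1r, the receptor of the growth factor M-CSF, was found in 100 of 118 cells, the lysosomal glycoprotein Cd68 in 103, the F4/80 antigen Adgre1 in 83, and Ptprc, which encodes the sorted CD45, in 84. Trem2 was found in 69 cells, Cd9 in 62 and Spp1 in 39. All of Trem2, Cd9 and Spp1 were found in 27 cells, 2 of them in 26, 1 in 37 and none in 28, so the 3 markers named for these cells do not mark all of them at this depth. In the resident-type class the same counts were 5, 14, 65 and 56 of 140 cells.

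Markers of monocytes and conventional dendritic cells were found in most cells of the low class and also of the resident-type class. The 18 monocyte markers outside the class definitions had 317 chow diet and 1557 WD UMIs, in 21 of 21 and 94 of 97 cells. The 17 dendritic cell markers outside them had 206 and 440 UMIs, in 20 and 91 cells. In the resident-type class the monocyte markers were found in 25 of 26 and 103 of 114 cells. They stood there at 3024 and 2924 CPM, against 2176 and 2861.5 in the low class. The dendritic cell markers were found in 23 and 87 resident-type cells, at 637 and 482 CPM against 1414 and 809 in the low class. Markers of the lineages that follow were low in sum but not absent. In the low class the 8 neutrophil markers had 6 chow diet and 33 WD UMIs, the 9 T cell markers outside the rule 23 and 75 in the same order, the 9 B cell markers outside it 1 and 14, the 8 NK cell markers 1 and 1, the 7 mast cell markers 1 and 0 and the 7 smooth muscle markers 0 and 2. Acta2 of smooth muscle had 0 UMIs. The 8 fibroblast markers had 21 and 107 UMIs, mostly of Gsn, which macrophages also carry, and 7 of the 8 were at 0 in chow diet cells and 5 in WD cells. The 9 markers of group 2 innate lymphoid cells (ILC2) had 1 UMI in 1 chow diet cell and 125 UMIs in 15 WD cells. Of the low class, 2 of 21 chow diet cells and 20 of 97 WD cells had 3 or more UMIs of another lineage's markers. These included the fibroblast markers in 2 chow diet and 12 WD cells and the ILC2 markers in 8 WD cells. Cells at this limit are called mixed cells below. The limit can be met through a gene that macrophages also carry, such as Gsn, so the name does not show that a cell held another cell type.

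The sums that chose the cells are a description and were not tested. The C1q sum of the low class had a median of 77.5 UMIs, from 5 to 287, and that of the resident-type class a median of 82, from 5 to 296. The limit of 5 on the C1q sum lay in a sparse range, since 3 low-class cells stood at 5 and 1 at 6, and 1 cell short of the limit stood at 4 and 4 at 3. The limit on the resident markers lay in a fuller range. In the low class 95 cells had 0 UMIs of Lyve1, Folr2, F13a1 and Cbr2 (19 chow diet, 76 WD) and 23 had 1, while 14 resident-type cells had 2 and 18 had 3. The median of the resident-type class was 8, from 2 to 77, so the limit divides a range that runs on without a gap.

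**Figure D1:**
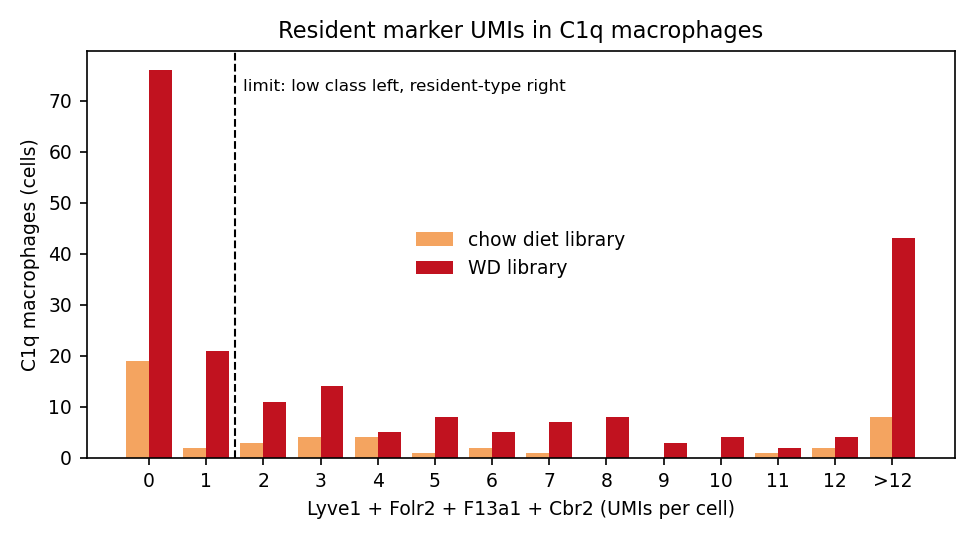
Number of C1q macrophages (vertical axis, cells) by the sum of Lyve1, Folr2, F13a1 and Cbr2 UMIs (horizontal axis), with bars for the chow diet and WD libraries and a dashed line at the limit between both classes. The 95 cells at 0 form the tallest pair of bars, and 23, 14 and 18 cells stand at 1, 2 and 3.

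The low class made up 2.34% of kept cells in the chow diet library (21 of 896, exact 95% interval 1.46 to 3.56%) and 4.71% in the WD library (97 of 2061, 3.83 to 5.71%), a ratio of 2.01. Among C1q macrophages its share was 44.7% (21 of 47, 30.2 to 59.9%) and 46.0% (97 of 211, 39.1 to 52.9%), a ratio of 1.03. Both classes of C1q macrophages thus held a larger part of the WD library, in near-equal proportion to each other. With 1 library per diet there is no test of these ratios, and the intervals cover counting error only. The ratio of shares of kept cells was 1.72 when cells with Dntt or Rag1 UMIs were left out of the total and 1.48 when every kept cell with 3 or more UMIs of a listed other lineage was left out, which takes whole lineages from the total (537 of 896 and 1466 of 2061 cells remained). When every cell was first thinned to 1500 UMIs and then classed, the low class was 70.6% and 59.4% of C1q macrophages, so its size depends on depth.

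Against the resident-type class, the low class was higher in genes of the Trem2 and lipid-associated list and lower in genes of resident macrophages beyond those of the rule. UMIs were summed per class and library and compared with edgeR's quasi-likelihood test with the library as a term (Benjamini-Hochberg adjustment over 8886 genes, 2 sums per class, called at an adjusted p under 0.05). Of all genes tested, 193 were called higher (2.17% of those tested) and 144 lower (1.62%), and 323 of the 337 had the same direction in both libraries. The cells were split on 4 genes in these same libraries, so genes that vary with those 4 among cells differ through that choice, and the calls describe what goes with the split. The library term takes up any shift shared by all classes. The p-values set differences between classes against how these differences varied between the 2 libraries, pooled over 4 classes (3 residual degrees of freedom). The estimated prior degrees of freedom were infinite, so this variation was shared over genes and is not each gene's own. The libraries also differ in diet. Values after ± are standard errors worked back from the edgeR test and not a spread between libraries. Each is the absolute log2 fold change over the square root of the test's F statistic. DESeq2, an alternative test, called 54 of the 337 genes, and edgeR with a robust spread 308 of them.

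Among the genes with the largest positive differences were AA467197, Cadm1, Itgax, Mmp12, Il1r2, Spp1, Ass1, Adam8, Gcnt2, Acp5 and Zmynd15. AA467197, also known as Nmes1 and induced in inflammatory macrophages, stood at 316 and 213 CPM in the chow diet and WD libraries, from 46 and 116 UMIs. The resident-type class held 0 and 2 UMIs of it, a ratio of 89.9 (95% counting interval 24.5 to 749). Its cells were 11 of 21 and 25 of 97.

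Mmp12, the macrophage metalloelastase that cleaves elastin, stood at 439 and 198 CPM against 6.01 and 6.68 in the resident-type class (log2 fold change 5.26 ± 0.46, adjusted p = 1.79e-27 by edgeR, 5.94e-07 by DESeq2). It was found in 33.3% and 18.6% of low-class cells, in 3.85% and 0.877% of resident-type cells and in 0.803% and 0% of cells with 3 or more Cd3 UMIs, which should lack it and had median depths of 3648.5 and 3217 UMIs (0 of 822 WD cells allows a share of up to 0.365%). Both libraries of the low class lay far above both of the resident-type class. Itgax, which encodes the integrin CD11c, stood at 54.9 and 68.0 CPM from 45 UMIs against 1 UMI in the resident-type class, a ratio of 49.9 (95% counting interval 8.52 to 2016). Its cells were 6 of 21 and 24 of 97, and 3.41% and 3.65% of the Cd3 cells held a UMI of it. The adhesion molecule Cadm1 had 54 UMIs against 1 (ratio 59.9, 95% counting interval 10.3 to 2410.1) and the decoy interleukin 1 receptor Il1r2 had 40 UMIs against 1 (ratio 44.4, 95% counting interval 7.52 to 1796), the latter in 11 cells.

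The upstream sequence of some of these genes is shown. Matches of TGANTCA, a pattern that covers the AP-1 heptamer, stood before the start sites of several of the genes called higher. N stands for any base, and the heptamer itself has C or G there, so the counts of this pattern include other letters. In windows of 250 bases before RefSeq start sites (GRCm38.p6, both strands), TGANTCA was found in 24 of the 148 genes called higher that matched the table (16.2%), in 11 of 106 called lower (10.4%), in 5.42% of the 7053 tested genes that matched and in 7.82% of all 27025 genes. The MAF half-site TGCTGAC was found in 1.35% of the genes called higher, in 7.55% of those called lower and in 3.62% of the tested genes. These are matches of letters and no binding was measured. The stretches below are all from the plus strand, with the motif in capitals and the first base of a start site not included. AA467197 (chr2:122637767-122637849, inside the annotated gene, with exon bases left out), Itgax (chr7:128129430-128129546, before the gene), Mmp12 (chr9:7347254-7347373, inside the annotated gene, before its second listed start site) and Trem2 (chr17:48346281-48346400, directly before the gene) hold a match of TGANTCA. The middle base is C in AA467197, G in Itgax and Mmp12 and A in Trem2, so the Trem2 match is not the AP-1 heptamer itself. Timd4 (chr11:46810679-46810798, before the gene), a gene called lower, holds the MAF half-site on the opposite strand, where it reads GTCAGCA on the strand printed.
AA467197: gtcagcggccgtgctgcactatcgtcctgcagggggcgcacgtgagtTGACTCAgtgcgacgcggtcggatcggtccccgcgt
Itgax: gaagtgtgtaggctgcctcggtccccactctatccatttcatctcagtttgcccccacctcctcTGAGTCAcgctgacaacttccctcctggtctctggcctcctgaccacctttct
Mmp12: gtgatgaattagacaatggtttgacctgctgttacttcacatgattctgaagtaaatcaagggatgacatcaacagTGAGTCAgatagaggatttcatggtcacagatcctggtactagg
Trem2: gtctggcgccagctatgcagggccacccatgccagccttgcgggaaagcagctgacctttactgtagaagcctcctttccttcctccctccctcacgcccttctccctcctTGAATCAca
Timd4: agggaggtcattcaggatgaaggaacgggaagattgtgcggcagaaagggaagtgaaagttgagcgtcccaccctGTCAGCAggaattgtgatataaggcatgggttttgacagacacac

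Spp1 was unevenly spread over cells. It stood at 281 and 2538 CPM against 6.01 and 124 in the resident-type class (log2 fold change 4.24 ± 0.26, adjusted p = 6.15e-57, 2.54e-07 by DESeq2, 0.236 with the robust spread). Its 1422 UMIs in the low class came from 39 cells, and 1 WD cell held 44.9% of them. It was found in 28.6% and 34.0% of low-class cells, 3.85% and 8.77% of resident-type cells and 1.41% and 0.608% of the Cd3 cells.

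The other genes of this group had fewer UMIs. Ass1, which makes the arginine precursor argininosuccinate, stood at 96.1 and 84.5 CPM against 6.01 and 5.01 (log2 fold change 4.05 ± 0.55). The sheddase Adam8 had 35 UMIs against 3 (ratio 12.9, 95% counting interval 4.08 to 65.8), and the glycosyltransferase Gcnt2 27 against 3 (ratio 9.99, 95% counting interval 3.07 to 51.4). Acp5, the tartrate-resistant acid phosphatase, stood at 172 and 84.5 CPM against 12.0 and 11.7 (log2 fold change 3.23 ± 0.48), and Zmynd15 at 68.6 and 84.5 CPM against 6.01 and 10.0 (3.14 ± 0.58). For all of them the low class was higher in both libraries.

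The genes with the largest negative differences were Fcna, Ccl24, Ednrb, Timd4, Ccl8, C4b, Fxyd2, Ltc4s, Ms4a8a, Tns1, Pf4 and Rcn3. Pf4, the chemokine platelet factor 4, stood at 165 and 171 CPM against 2387 and 1761 in the resident-type class (log2 fold change -3.47 ± 0.22, adjusted p = 4.69e-51 by edgeR, 1.32e-11 by DESeq2). Fcna, a ficolin of the lectin complement pathway, had 0 UMIs in the low class against 32, so it was at least 9.61-fold lower (floor of 3 UMIs over the class). The eosinophil chemokine Ccl24 had 2 UMIs against 134, a resident-type over low ratio of 60.4 (95% counting interval 16.4 to 504). Timd4, the phosphatidylserine receptor Tim4, had 1 UMI against 33 (ratio 29.7, 95% counting interval 4.98 to 1209.7), and the endothelin receptor Ednrb 1 against 52 (ratio 46.9, 95% counting interval 8.05 to 1886). Several of these genes were thus near absent from the low class.

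The others of this group were present at low levels in the low class. The monocyte chemokine Ccl8 stood at 0 and 16.5 CPM against 108 and 309 (log2 fold change -4.30 ± 0.46), the complement component C4b at 6.86 and 9.19 CPM against 120.3 and 177 (-4.10 ± 0.52), the ion pump regulator Fxyd2 at 13.7 and 11.0 CPM against 355 and 175 (-4.09 ± 0.44) and the leukotriene C4 synthase Ltc4s at 13.7 and 20.2 CPM against 319 and 317 (-3.95 ± 0.39). Ms4a8a and the focal adhesion protein Tns1 had 2 UMIs each in the low class, against 39 and 33, and Rcn3 stood at 0 and 9.19 CPM against 66.1 and 90.1. Ltc4s was not called by DESeq2 (adjusted p = 0.436). All were lower in both libraries.

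**Figure D2:**
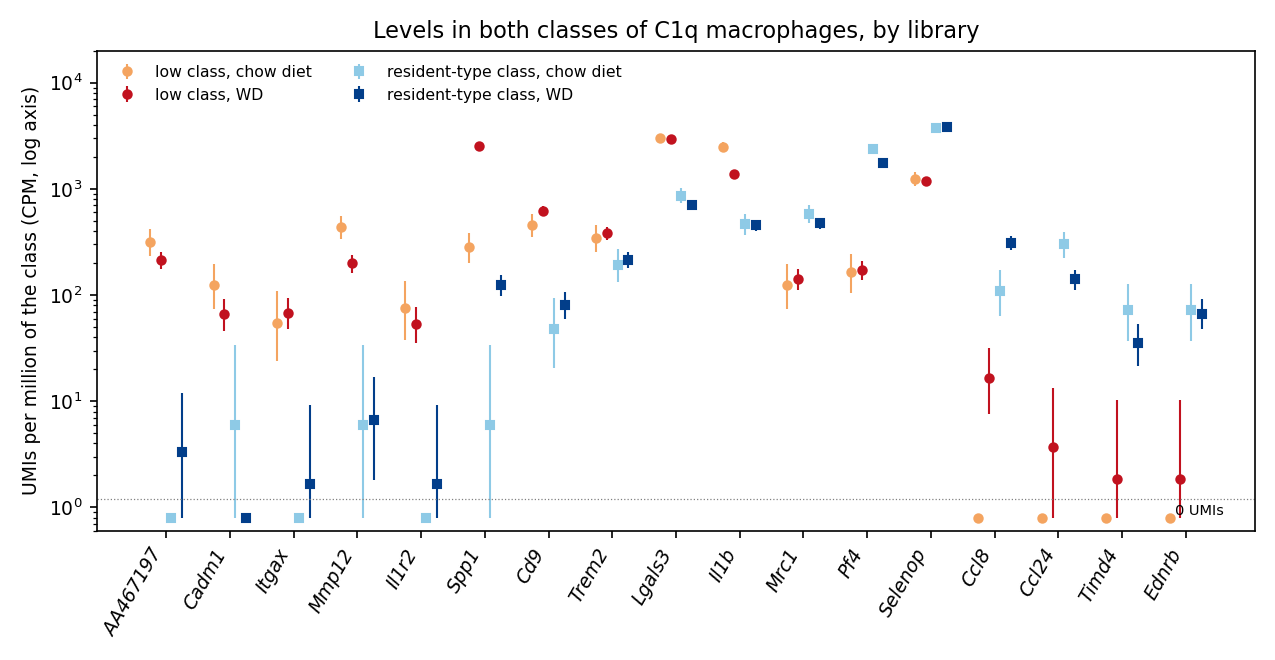
CPM on a log axis of 17 genes in the low class (circles) and the resident-type class (squares), 1 point for each library, with exact 95% counting intervals; points under the dotted line had 0 UMIs. Mmp12 at 439 and 198 CPM lies far above the resident-type class at 6.01 and 6.68, Pf4 lies below it at 165 and 171 against 2387 and 1761, and Trem2 at 343 and 382 lies near it at 192 and 214.

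The list of Trem2 and lipid-associated macrophage genes stood higher in the low class. Of its 21 tested members 13 were called higher and 0 lower, with a median log2 fold change of 1.24 beside -0.01 for all genes. This list and the others were chosen with earlier results of these data known, so the counts are descriptions. Cd9 stood at 453 and 625 CPM against 48.1 and 80.1 (log2 fold change 3.12 ± 0.28, adjusted p = 3.36e-26), and it was found in 61.9% and 50.5% of low-class cells, 15.4% and 15.8% of resident-type cells and 13.3% and 10.8% of Cd3 cells. Trem2 itself stood at 343 and 382 CPM against 192 and 214 (0.91 ± 0.26, adjusted p = 0.0147), a smaller difference. The shares of cells with a Trem2 UMI, 52.4% and 59.8%, were close to those in the resident-type class, 57.7% and 52.6%, and in Cd3 cells they were 0.402% and 0%. Trem2 was not called by DESeq2 (adjusted p = 0.682) and 5 of the 14 alternative settings lost its call.

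Within the same list the galectin Lgals3 stood at 2985 and 2979 CPM against 866 and 713 (log2 fold change 2.02 ± 0.17), one of its most abundant members. Gpnmb stood at 6.86 and 116 CPM against 0 and 18.4 (2.62 ± 0.50), from 8 cells, 1 of which held 50% of the UMIs, and DESeq2 did not call it (adjusted p = 0.527). The lipid chaperone Fabp5 stood at 103 and 255 CPM against 66.1 and 43.4 (2.06 ± 0.31), with 46.1% of its UMIs in 1 cell. Lipoprotein lipase (Lpl) stood at 199 and 333 CPM against 259 and 48.4 (1.5 ± 0.29), lower than the resident-type class in the chow diet library and higher in the WD library. The protease inhibitor Cstb (0.73) and the phosphatidylserine-binding Anxa5 (0.63) made up the smaller differences, and the call of Fabp4 rests on 4 cells. Members not called included the tetraspanin Cd63, Cd68, the lipid droplet protein Plin2 and the protease Ctsd. DESeq2 called 6 of the 13 and the robust spread 10, and without mixed cells 8 members were called.

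Genes of resident macrophages that the rule did not use were lower. Of 24 tested members 18 were called lower and 1 higher, with a median log2 fold change of -3.02, or -1.98 with the 4 members at 0 in a class set at their bounds. The mannose receptor Mrc1 stood at 124 and 142 CPM against 583 and 472 (log2 fold change -1.82 ± 0.26, adjusted p = 3.87e-10), and it was found in 38.1% and 40.2% of low-class cells, 92.3% and 86.8% of resident-type cells and 1.41% and 1.09% of Cd3 cells. The hemoglobin scavenger receptor Cd163 stood at 13.7 and 14.7 CPM against 132 and 175 (-3.37 ± 0.46), the bridging ligand Gas6 at 48.0 and 62.5 CPM against 385 and 387 (-2.67 ± 0.31), and the selenium carrier Selenop at 1249 and 1176 CPM against 3734 and 3828 (-1.56 ± 0.17). The lectin Mgl2 (-1.84) and the neonatal Fc receptor Fcgrt (-2.00) were lower as well. The C-type lectin Clec4n was the member called higher, at 130.4 and 95.6 CPM against 36.1 and 56.7 (1.18), and 9 of 14 settings lost that call. Stab1, Wfdc17, Igf1, Vsig4 and Cd209g were not called. DESeq2 called 12 of the 19 genes.

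General macrophage genes differed in both directions, 3 higher and 2 lower of 16 tested (median -0.10). The cysteine protease Ctss stood at 3198 and 2711 CPM against 1221 and 1764 (log2 fold change 1.09 ± 0.16), and the adaptor Tyrobp, through which Trem2 signals, at 2340.3 and 2202 CPM against 1136 and 1732 (0.74 ± 0.16). The related adaptor Fcer1g was higher by 0.60. Lysozyme (Lyz2) stood at 11221 and 10539.9 CPM against 21484 and 17582 (-0.74 ± 0.13) and Csf1r at 597 and 494 CPM against 926 and 859 (-0.64 ± 0.20, adjusted p = 0.0436), both lower. Adgre1, at 295 and 401 CPM against 433 and 501, was not called (adjusted p = 0.689). The 5 calls were not made by DESeq2, and 7 of 14 settings lost that of Csf1r.

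Outside the list, the B cell and macrophage receptor Cd72 stood at 528 and 606 CPM against 30.1 and 182 (log2 fold change 2.30 ± 0.26). Its resident-type level was far lower in the chow diet library than in the WD library, and neither DESeq2 (adjusted p = 0.695) nor the robust spread (0.536) called it. It was higher in both libraries. Of 45 lysosome genes 5 were called higher and 0 lower, with a median of 0.06. Beside Ctss these included the cathepsin Ctsz (0.89), the glucuronidase Gusb (0.95) and the saposin precursor Psap (0.59). DESeq2 called 1 of the 5.

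**Figure D3:**
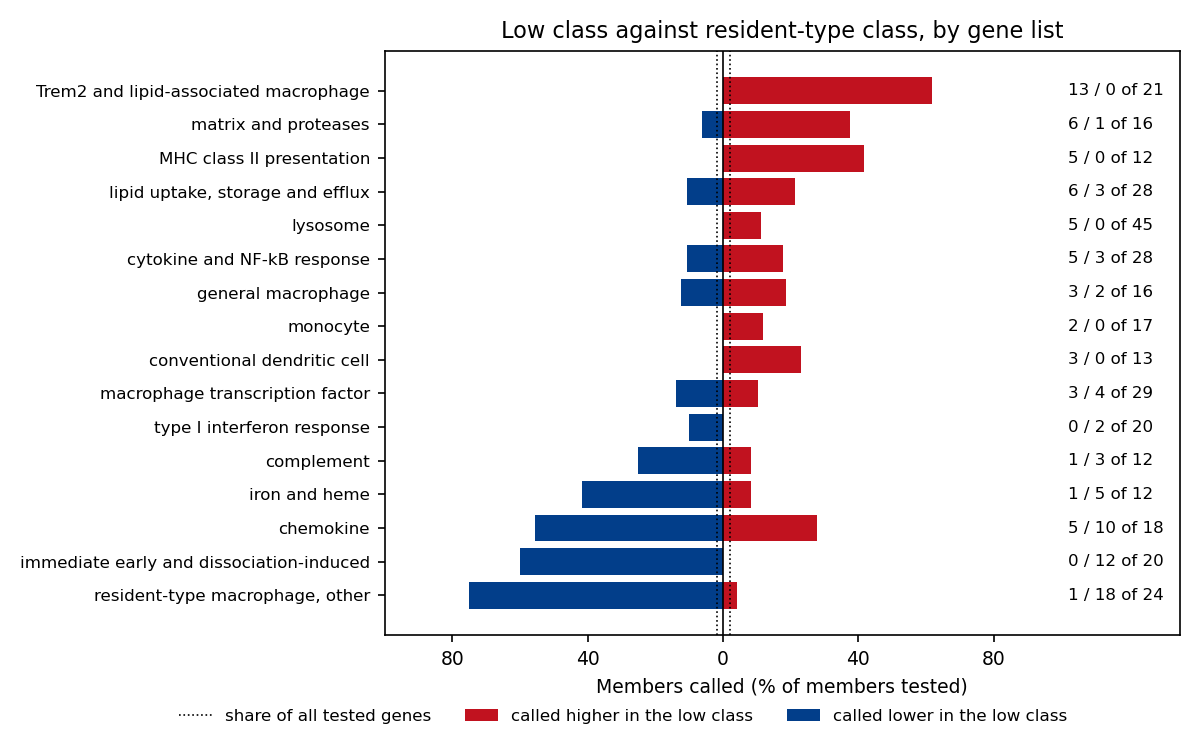
Percent of tested members called higher (red, right) or lower (blue, left) in the low class against the resident-type class for 16 gene lists, with the counts higher / lower of tested at the right and dotted lines at the shares of all genes, 2.17% and 1.62%. The Trem2 list has 13 of 21 members higher and 0 lower, and the list of other resident-type genes 18 of 24 lower.

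Genes of lipid handling went both ways, 6 higher and 3 lower of 28 tested (median 0.25). The cholesterol exporter Abcg1 stood at 109.8 and 84.5 CPM against 30.1 and 38.4 (log2 fold change 1.44 ± 0.40, adjusted p = 0.0134). The liver X receptor Nr1h3 stood at 48.0 and 27.6 CPM against 6.01 and 6.68 (2.34 ± 0.73), and Mylip, which lowers the LDL receptor, at 96.1 and 51.5 CPM against 24.1 and 23.4 (1.5 ± 0.48). The scavenger receptor Cd36 stood at 41.2 and 40.4 CPM against 204 and 164 (-2.01 ± 0.37, adjusted p = 5.21e-06), lower in both libraries, and the phospholipid transfer protein Pltp at 501 and 401 CPM against 836 and 893 (-0.90 ± 0.21). Apoe, the gene deleted in all these mice, had 3 and 9 UMIs (20.6 and 16.5 CPM against 60.1 and 63.4, -1.73 ± 0.54, adjusted p = 0.0382), and since the counted end of the transcript can remain after the deletion, these UMIs do not check the genotype. DESeq2 called 0 of the 9 genes, the robust spread 6, and with a minimum of 30 UMIs 1 higher and 1 lower were called. The call of Mylip was lost in 9 of 14 settings, that of Abcg1 in 4 of 14 and that of Nr1h3 in 4 of 12. For the genes called lower it was lost in 2 of 14 for Cd36, 4 of 14 for Pltp and 5 of 13 for Apoe.

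Of 16 matrix and protease genes 6 were called higher, 1 lower and 9 not called (median 0.97, or 0.30 with a member at 0 set at its bound). Beside Mmp12, Spp1 and Adam8, the membrane-bound protease Mmp14 stood at 82.4 and 51.5 CPM against 12.0 and 10.0 (log2 fold change 2.58 ± 0.58) and Mmp19 at 109.8 and 101 CPM against 12.0 and 20.0 (2.55 ± 0.46), the latter with 39.4% of its UMIs in 1 cell. The urokinase receptor Plaur stood at 323 and 244 CPM against 96.2 and 103 (1.51 ± 0.26, adjusted p = 1.14e-06), higher in both libraries. Ecm1 was lower (-1.23). DESeq2 called 5 of the 7.

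Antigen presentation by MHC class II had 5 of 12 members higher and 0 lower (median 0.66), but mostly by small amounts. Ifi30, which reduces disulfide bonds of antigens, stood at 357 and 469 CPM against 174 and 205 (log2 fold change 1.21 ± 0.23, adjusted p = 1.81e-05 by edgeR, 0.0418 by DESeq2). The class II chain H2-Ab1 stood at 13280.0 and 8358 CPM against 7678 and 8475 (0.45 ± 0.13, adjusted p = 0.0226), so it differed in the chow diet library and hardly in the WD library. The invariant chain Cd74, at 42249 and 27972 CPM against 25916 and 26693 (0.45 ± 0.12), had the same pattern, and neither of both was called by DESeq2 or with the robust spread. The peptide editor H2-DMb2 was higher by 2.01, from 12 cells.

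Cytokine and NF-kB genes were higher in 5 and lower in 3 of 28 members (median 0.27). Il1b stood at 2484 and 1382 CPM against 463 and 456 (log2 fold change 2.19 ± 0.18, adjusted p = 4.83e-32 by edgeR, 0.00216 by DESeq2, 0.443 with the robust spread), and 72 of 118 low-class cells held a UMI of it. The antiapoptotic Bcl2a1b stood at 968 and 781 CPM against 373 and 300.4 (1.46 ± 0.21), the adaptor Traf1 at 199 and 209.5 CPM against 60.1 and 91.8 (1.39 ± 0.28) and the cytokine Osm at 261 and 208 CPM against 66.1 and 127 (1.25 ± 0.27). Tnfaip2 was higher by 1.63. The lower members were Ier3 (-1.67), the mRNA decay factor Zfp36 (-0.88) and Egr1 (-0.89), which are also genes of the immediate early response. DESeq2 called 4 of the 8 genes.

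Of 18 chemokines tested 5 were called higher and 10 lower (median -0.73). Among those lower were the monocyte attractants Ccl2, at 371 and 889.5 CPM against 2050.4 and 2228 (log2 fold change -1.74 ± 0.19), and Ccl7, at 82.4 and 496 CPM against 1461 and 2403 (-2.75 ± 0.22, adjusted p = 4.48e-34). Ccl12 (-1.16), Ccl6 (-1.18), Ccl9 (-0.77) and the neutrophil attractant Cxcl2 (-0.70) were lower too, beside Ccl8, Ccl24, Pf4 and Cxcl1. Those higher were the membrane-bound scavenger and chemokine Cxcl16, at 1043 and 919 CPM against 451 and 422 (1.25 ± 0.20), Ccl4, at 3404 and 4653 CPM against 1569 and 2226 (1.21 ± 0.16), Ccl5 (2.86, 33.3% of UMIs in 1 cell) and Ccl22 (3.56, from 3 cells). Ccl3 was called higher (0.68) but stood at 803 and 2062 CPM against 914 and 804, with a different direction in each library. DESeq2 called 4 of the 15, all lower, and Cxcl2 was higher in the low class (log2 fold change 0.27, not called) when cells were classed after thinning.

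Genes of efferocytosis, the uptake of dead cells, divided into 3 higher and 3 lower of 17 tested (median 0.07). The receptor Axl stood at 151 and 173 CPM against 42.1 and 95.1 (log2 fold change 1.13 ± 0.32), the transglutaminase Tgm2 at 172 and 79.0 CPM against 6.01 and 26.7 (2.38 ± 0.41, adjusted p = 6.95e-07) and the integrin chain Itgb5 at 178 and 213 CPM against 96.2 and 98.5 (1.11 ± 0.30). Lower were Gas6, the ligand of Axl, and the receptors Timd4 and Cd36. Axl and its ligand thus went in opposite directions. DESeq2 called Tgm2 and Gas6 and missed the call of Axl (adjusted p = 0.969).

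Iron and heme genes were lower in 5 and higher in 1 of 12 members (median -0.79). Heme oxygenase Hmox1 stood at 295 and 389.6 CPM against 685 and 693 (log2 fold change -0.89 ± 0.22), transferrin (Trf) at 515 and 557 CPM against 968 and 1192 (-0.94 ± 0.20) and the biliverdin reductase Blvrb at 151 and 147 CPM against 385 and 290.4 (-1.06 ± 0.27), beside Cd163. Ferritin heavy chain Fth1, which stores iron, was higher at 17858 and 14432 CPM against 8935 and 9673 (0.90 ± 0.13, adjusted p = 3.96e-10). It was not called by DESeq2 (adjusted p = 0.271) or with the robust spread (0.471). Of 12 complement genes 3 were lower, among them C4b and properdin (Cfp, -1.27), and Itgax, part of complement receptor 4, was the 1 member higher.

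Among 29 transcription factors 3 were higher and 4 lower (median -0.03). Bhlhe40 stood at 144 and 119 CPM against 24.1 and 28.4 (log2 fold change 2.28 ± 0.37, adjusted p = 7.17e-08 by edgeR, 0.00167 by DESeq2), and Runx3 at 165 and 60.6 CPM against 48.1 and 26.7 (1.55 ± 0.40). Maf, a factor of resident macrophages, stood at 41.2 and 80.9 CPM against 253 and 279 (-1.94 ± 0.32, adjusted p = 2.27e-07). Klf6 at 659 and 1027 CPM against 2086 and 1946 (-1.17 ± 0.18), Klf2 at 281 and 717 CPM against 914 and 1290.1 (-0.99 ± 0.20) and Atf3 at 673 and 1334 CPM against 1726 and 1539 (-0.66 ± 0.18) were also lower. Neither DESeq2 nor the robust spread called Klf2 or Atf3.

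Of 20 immediate early genes, which digestion of tissue also induces, 12 were called lower and 0 higher (median -0.55). Jun stood at 1043 and 1606 CPM against 2080.5 and 2789 (log2 fold change -0.81 ± 0.17), Junb at 2759 and 3608 CPM against 5213 and 5134 (-0.62 ± 0.15) and Fos at 1805 and 2178 CPM against 2736 and 3268 (-0.51 ± 0.16, adjusted p = 0.0481). Dusp1 was lower too (-0.55). The heat shock gene Hspa1a, at 3981 and 3587 CPM against 6157 and 4563, was not called (adjusted p = 0.111). DESeq2 called 2 of the 12, without mixed cells 5 were called, and with classes taken after thinning 0. Of 20 type I interferon genes 2 were lower, Ifitm3 (-0.74) and Ifit1.

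Genes of other cell types were among the calls. The dendritic cell list had 3 of 13 members higher (median 0.75, or 0.57 at bounds), namely the protease Napsa at 82.4 and 66.2 CPM against 6.01 and 13.4 (log2 fold change 2.65 ± 0.46), Ifitm1 at 27.5 and 86.4 CPM against 18.0 and 6.68, with 45.1% of its UMIs in 1 cell, and Tnip3 at 892 and 197 CPM against 216 and 76.8 (1.85 ± 0.25). The monocyte list had 2 of 17 higher, Msrb1 and Cd300e. The ILC2 list had 2 of 8 higher, the growth factor Areg at 0 and 159.9 CPM against 18.0 and 8.34 and Il5, whose 12 UMIs were all in 1 WD cell. Of the 87 Areg UMIs, which lay in 11 WD cells, 39 were in 1 cell. Areg lost its call by DESeq2, with classes taken after thinning and without mixed cells. It is itself a marker that defines mixed cells, so the last loss cannot show which cells its UMIs came from. Mixed cells were not defined by dendritic cell, monocyte or T cell markers, so mixing with those types was not tested. Il7r, a T cell marker, was higher at 75.5 and 79.0 CPM against 36.1 and 10.0 (2.28 ± 0.49), and the 7 neutrophil members had 0 calls by edgeR and by DESeq2.

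A second comparison set the low class against 72 cells (18 chow diet, 54 WD) with a C1q sum under 5 and at least 2 UMIs of Thbs1 and F10 together. Some of these Thbs1/F10 cells carried neutrophil genes: the 8 neutrophil markers had 1900 and 10327 UMIs, and 3 chow diet and 7 WD cells held 3 or more. The low class was called higher in 236 genes (2.66% of those tested) and lower in 233 (2.62%). The largest negative differences were in neutrophil genes, S100a8, Ngp, Retnlg, Ltf, Wfdc21 and Pglyrp1. S100a8 stood at 13.7 and 7.35 CPM against 8904 and 20725 (log2 fold change -10.92 ± 0.28), and without mixed cells, which takes the neutrophil-marked cells out, its log2 fold change was 0.45 and was not called. Retnlg, with 0 UMIs in the low class, was at least 310.3-fold lower. Pglyrp1 was spread more widely, over 9 of 18 chow diet and 21 of 54 WD Thbs1/F10 cells. It kept its call in all 13 settings, also without mixed cells.

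Monocyte genes were lower in the low class than in the Thbs1/F10 cells, 11 of 17 tested with 0 higher (median -2.46). Ly6c2, the Ly6C antigen of inflammatory monocytes, stood at 20.6 and 66.2 CPM against 786 and 989 (log2 fold change -4.29 ± 0.30, adjusted p = 1.11e-42). Plac8 stood at 124 and 213 CPM against 2990.4 and 3491 (-4.37 ± 0.22), Chil3 at 0 and 22.1 CPM against 173 and 1237 (-5.88 ± 0.40), with all its low-class UMIs in 1 cell, and haptoglobin (Hp) at 0 and 1.84 CPM against 374 and 408.

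Of 16 general macrophage genes 4 were called higher than in the Thbs1/F10 cells, 2 lower (Lyz2, -0.61, and the scavenger receptor Msr1, -1.76) and 10 not called (median 0.23). Trem2 stood at 343 and 382 CPM against 38.3 and 67.4 (log2 fold change 2.67 ± 0.33, adjusted p = 1.37e-13 by edgeR, 8.01e-05 by DESeq2) and Mmp12 at 439 and 198 CPM against 28.8 and 6.42 (4.41 ± 0.48). Selenop, at 1249 and 1176 CPM against 201 and 193 (2.63 ± 0.21), and Mrc1, at 124 and 142 CPM against 57.5 and 6.42 (2.74 ± 0.45), lay between both other groups, below the resident-type class and above the Thbs1/F10 cells. Adgre1 was higher by 2.49, Csf1r by 0.81 and Ccl12 by 6.31. The growth factor Igf1, with 151 UMIs against 0, was at least 30.3-fold higher, Zmynd15 at least 11.2-fold, Cadm1 at least 10.8-fold, Gas6 at least 8.24-fold and Tanc2 at least 7.83-fold.

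The markers of lipid-carrying macrophages did not all set the low class apart from the Thbs1/F10 cells. Spp1 stood at 281 and 2538 CPM against 585 and 896 and was not called (log2 fold change 0.53, adjusted p = 0.175), but it was called lower without mixed cells (-1.11) and with classes taken after thinning (-1.21). Not called either were Gpnmb at 6.86 and 116 CPM against 134 and 167 (0.0769) and Lgals3 at 2985 and 2979 CPM against 3287 and 4439 (0.276). Cd9 was higher, at 453 and 625 CPM against 134 and 389 (log2 fold change 1.00 ± 0.25), though not by DESeq2 (adjusted p = 0.393) or on thinned sums, and it was -0.031 with classes taken after thinning. Fabp5 was lower, at 103 and 255 CPM against 853 and 909 (-2.29 ± 0.25). Of the 21 members of that list 6 were higher and 2 lower (median 0.15).

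Of 12 MHC class II members 7 were called higher than in the Thbs1/F10 cells (median 1.40), with Cd74 at 42249 and 27972 CPM against 15459.8 and 5874 (log2 fold change 1.83 ± 0.12) and H2-Aa at 11200.5 and 7799.7 CPM against 4389.7 and 2113 (1.63 ± 0.14). With the robust spread 3 of the 7 were called, and neither Cd74 nor H2-Aa. Of 28 cytokine genes 9 were lower and 2 higher (median -0.48). Il1b was among them at 2484 and 1382 CPM against 2847 and 3507 (-0.67 ± 0.16), though not by DESeq2 (adjusted p = 0.999) or with the robust spread, and Plaur of the matrix list stood at 323 and 244 CPM against 757 and 809 (-1.50 ± 0.23). Of 18 chemokines 9 were higher and 2 lower (median 1.05).

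A further comparison set the low class against 92 cells (20 chow diet, 72 WD) with a C1q sum under 5 and at least 2 UMIs of Cd209a, a lectin of dendritic cells. The low class was called higher in 443 genes (4.99%) and lower in 307 (3.45%), by DESeq2 in 143 and 49. Of 16 general macrophage genes 15 were higher (median 2.71, or 2.63 at bounds), with Csf1r at 597 and 494 CPM against 92.5 and 54.9 (log2 fold change 2.95 ± 0.27, adjusted p = 3.10e-26 by edgeR, 6.41e-12 by DESeq2) and Lyz2 at 11221 and 10539.9 CPM against 4254 and 1172 (2.16 ± 0.14). Trem2 had 258 UMIs against 0 and was at least 77.9-fold higher, Mmp12 at least 51.9-fold, Ccl12 at least 96.0-fold, the complement receptor C5ar1 at least 51.3-fold, Pmp22 at least 38.7-fold and Pf4 at least 35.3-fold.

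The Cd209a cells differed in lysosome and presentation genes in opposite directions. Of 45 lysosome genes 26 were higher in the low class and 0 lower (median 1.00), with Ctsd at 659 and 827 CPM against 59.4 and 67.6 (log2 fold change 3.54 ± 0.26, adjusted p = 9.03e-39) and Cd63 with 468 UMIs against 1 (ratio 424, 95% counting interval 75.7 to 16785). Of 12 MHC class II genes 8 were lower and 1 higher (median -0.67), with H2-DMa at 686 and 656 CPM against 1539 and 1136 (-0.98 ± 0.19, adjusted p = 9.03e-06) and H2-Aa at 11200.5 and 7799.7 CPM against 13884 and 14101 (-0.61 ± 0.13), which lost its call in 6 of 13 settings, DESeq2 and the robust spread among them. Dendritic cell genes were lower in 9 of 13 (median -3.05), with the receptor Flt3 at 6.86 and 1.84 CPM against 79.3 and 76.0 (-4.54 ± 0.76), the homing receptor Ccr7 at 6.86 and 31.2 CPM against 26.4 and 327 (-3.31 ± 0.43) and Napsa at 82.4 and 66.2 CPM against 436 and 676 (-3.05 ± 0.28). The largest negative differences were Cd7, Ffar2, Klrd1, Jaml, Ltb and Lmo1, and Cd7, with 174 UMIs against 0 in the low class, was at least 64.0-fold lower. Itgax, which dendritic cells also carry, stood at 54.9 and 68.0 CPM against 106 and 116 and was not called (adjusted p = 0.173).

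The low class was not uniform. All 258 C1q macrophages were clustered without the genes of the rule, and the low class fell mostly into 5 of 7 clusters, named by number. Cluster 4 held 43 low-class cells (10 chow diet, 33 WD) of its 48, and was led by Zmynd15, Cd9, AA467197, Mmp12 and Cd72. Cluster 6 held 24 of 36, led by Ear2, Mmp19 and Fn1. Cluster 0 held 21 of 42, of which 1 was from the chow diet library, led by the heat shock genes Hsph1 and Bag3, cluster 3 held 18 of 23, led by Ly6a, Plac8 and Ms4a4c, and cluster 5 held 10 of 47. Clusters 1 and 2, led by Fxyd2 and Pf4 and by Ccl8 and Fcna, held 1 low-class cell each of 36 and 26. The clusters were drawn from these cells, so the values below describe them and were not tested.

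The clusters differed in detection, and also in depth, with median depths over all their cells of 5692 UMIs in cluster 4 and 7348.5 in cluster 6. Among low-class cells, Trem2 was found in 76.7% of cluster 4 and 25% of cluster 6, at 591 and 101 CPM. Itgax was found in 25.6% and 45.8% of the same clusters, 11 cells in each. Cluster 4 also had the highest shares of Cd9 (81.4%), Spp1 (53.5%), Cd72 (83.7%) and Mmp12 (37.2%). By level Spp1 was higher in clusters 6 and 3, at 3567 and 3256 CPM against 1609 in cluster 4. These levels came from only 4 and 7 cells against 23, and 1 cell held 44.9% of all Spp1 UMIs in the low class. Cluster 6 had the highest shares of Il1b (87.5%), Ly6c2 (33.3%), Plac8 (41.7%) and H2-Aa (95.8%), and the lowest of Pf4 (8.33%). By level Plac8 (823 against 202 CPM) and Ly6c2 (139 against 112) were higher in cluster 3 than in cluster 6, and H2-Aa in cluster 5 (13188 against 11893). The Plac8 levels came from 5 and 10 cells, and 1 cell held 44.0% of all Plac8 UMIs in the low class. The chemokine receptor Ccr2 of monocyte-derived cells was found in 20.9% of cluster 4 and in 52.4 to 66.7% of the other 4.

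Cd9 was found more often in cells with Trem2, and Spp1 and Mmp12 in cells with Cd9. Of cells with a Trem2 UMI 62.3% held a Cd9 UMI, against 38.8% of those without, with median depths of 5667 and 4549 UMIs. Spp1 was found in 53.2% of Cd9-positive and 10.7% of Cd9-negative cells, and Mmp12 in 35.5% and 5.36%, with median depths of 6226.5 and 4842 UMIs. Itgax was found in 20.3% of Trem2-positive and 32.7% of Trem2-negative cells, but that gap was in the chow diet library (0 of 11 and 6 of 10 cells), and the WD shares were near equal (24.1% and 25.6%). Depth moved with the first 3 pairs over both libraries. In the chow diet library Cd9-positive cells were shallower (6473 against 7201.5 UMIs), and Spp1 was found in 46.2% of them and 0% of the others and Mmp12 in 46.2% and 12.5%.

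**Figure D4:**
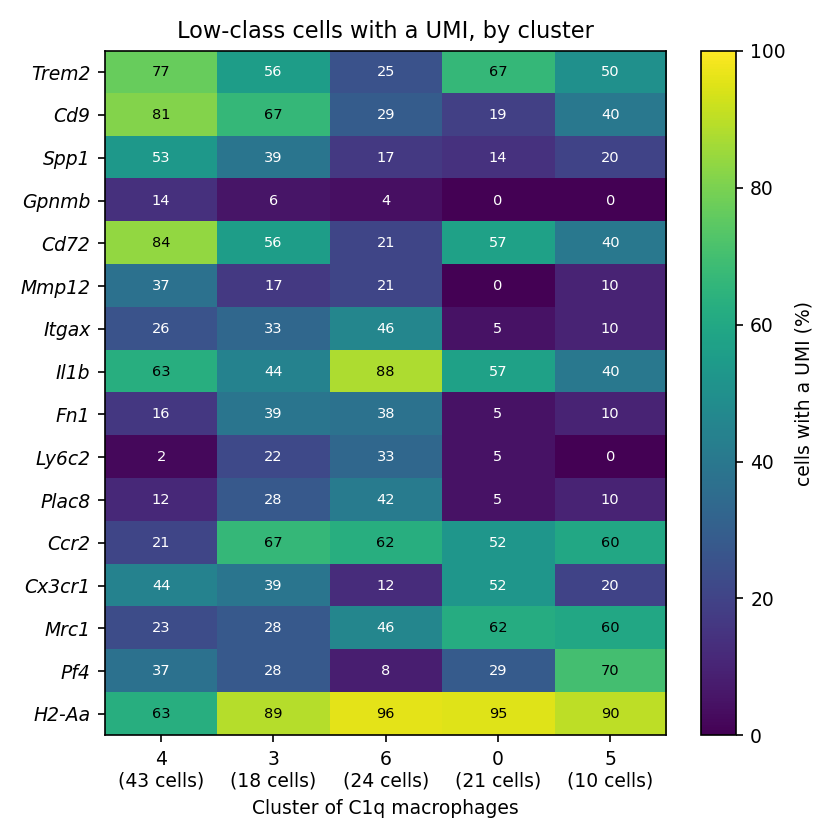
Percent of low-class cells with at least 1 UMI of 16 genes (rows) in 5 clusters of C1q macrophages (columns, with the number of low-class cells). Cluster 4 has the highest shares of Trem2 (76.7%) and Cd9 (81.4%), and cluster 6 has Trem2 in 25% and Il1b in 87.5% of its cells.

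A few cells held most UMIs of some genes. Of 900 genes with at least 100 UMIs in the low class, 12 had over 50% of their UMIs in 5 cells, against a median of 18.8%. These were Retnla (95.1%), Spp1 (86.6%), Ccl5 (79.6%), Fabp5 (77.3%), Ccl7 (74.5%), Plac8 (73.1%), Mt2 (70.4%), Cxcl10 (70.3%), Gdf15 (63.3%), Dnajb1 (57.0%), Sgk1 (56.0%) and Fn1 (54.2%). Retnla, a secreted protein of alternative activation, stood at 1359 and 1029 CPM against 9476 and 3303 in the resident-type class (log2 fold change -1.96 ± 0.16). It was found in 12 low-class cells, and neither DESeq2 (adjusted p = 0.770) nor the robust spread called it. Sums of such genes follow single cells.

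Between the diets the low class of the WD library had more Spp1 and less Lyz1 and Tnip3, and Trem2 differed little. With 1 library per diet there is no test, so genes are given by size, with intervals that cover counting error only. Of 2646 genes with at least 30 UMIs, 138 were at least 2-fold higher in the WD library (5.22%) and 71 at least 2-fold lower (2.68%), around a median log2 ratio of 0.06. Trem2 stood at 343 CPM on the chow diet and 382 CPM on WD (ratio 1.11, 95% counting interval 0.815 to 1.55), and Cd9 at 453 CPM on the chow diet and 625 CPM on WD (1.38, 95% counting interval 1.06 to 1.82). The interval of Cd9 excluded 1, but its log2 ratio was -0.065 as a mean over cells. Lgals3 (2985 and 2979 CPM) and Cd72 (528 and 606 CPM) were near equal. Mmp12 was lower in the WD library, at 439 and 198 CPM (0.452, 95% counting interval 0.329 to 0.626), as was AA467197 at 316 and 213 CPM (0.675, 95% counting interval 0.476 to 0.972).

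Spp1 stood at 281 CPM on the chow diet and 2538 CPM on WD, a ratio of 9.02 (95% counting interval 6.61 to 12.6), from 6 and 33 cells. Without the cell with 639 UMIs its log2 ratio was 2.27 in place of 3.17. In the resident-type class the log2 ratio was 4.09, from 1 chow diet UMI and 74 WD UMIs in 10 cells. The 95% counting interval of that ratio was 3.57 to 822. Gpnmb had 1 chow diet UMI and 63 UMIs in 7 WD cells (ratio 16.9, 95% counting interval 2.92 to 677), 32 of them in 1 cell, without which the log2 ratio was 2.81 in place of 3.82. Both genes were thus higher in few cells. Fabp5, at 103 and 255 CPM, had a log2 ratio of 1.30, or 0.28 without its top cell. Acp5 was lower at 172 and 84.5 CPM, but its log2 ratio went from -1.01 to 1.01 without 1 chow diet cell.

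The lowest ratios were those of Lyz1, AY036118, Tnip3, Pilrb2, Nfil3, Gm6133, Ago2 and Cxcr4. Lyz1, a lysozyme close in sequence to Lyz2, stood at 391 CPM on the chow diet and 25.7 CPM on WD (log2 ratio -3.85, and -2.62 in the resident-type class), and reads of both genes may be split between them. AY036118 had log2 ratios of -2.42 and -2.12 in both classes and Tnip3 of -2.17 and -1.48, so these 3 were lower in both. The chemokine receptor Cxcr4 stood at 391 and 132 CPM (-1.55 and -0.82). Without the cell with the most UMIs the low-class log2 ratio was -0.63 for Cxcr4, -2.78 for Lyz1 and -0.99 for Nfil3. For Nfil3 (-1.63 and 0.23), Pilrb2 (-1.94 and 0.15) and Ago2 (-1.56 and 0.46) the signs of both classes differed. These differences between classes were not tested.

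The highest ratios were those of Areg, Lepr, Gpnmb, Spp1, Hspb1, Gga1, Nans and Ogfrl1. Areg had 87 WD UMIs and 0 on the chow diet, at least 7.77-fold higher, and Lepr 0 and 59, at least 5.27-fold higher, with 56 of the 59 in 1 cell. The small heat shock protein Hspb1 stood at 13.7 and 132 CPM from 1 and 8 cells (ratio 9.64, 95% counting interval 2.57 to 81.1), with a log2 ratio of 3.14, or 2.34 without its top cell. Gga1, Nans and Ogfrl1 had 1 chow diet UMI each and 36, 34 and 30 WD UMIs, spread over 28, 22 and 24 cells. Their ratios were 9.64 (95% counting interval 1.62 to 391), 9.10 (95% counting interval 1.53 to 370.1) and 8.03 (95% counting interval 1.34 to 328). In the resident-type class the log2 ratios of Hspb1, Gga1, Nans and Ogfrl1 lay between -0.11 and 0.35.

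By list, 0 of 8 MHC class II genes passed 2-fold in either direction. Levels were lower in the WD library for 7 of the 8, beside 43.5% of all 2646 genes (median log2 ratio -0.46, and 0.10 in the resident-type class). H2-Ab1 stood at 13280.0 CPM on the chow diet and 8358 CPM on WD, Cd74 at 42249 and 27972 CPM, H2-Aa at 11200.5 and 7799.7 and H2-Eb1 at 9341 and 6488. Of 13 chemokines 5 were at least 2-fold higher and 0 lower (median 0.05), Ccl7 at 82.4 and 496 CPM, Ccl5 at 41.2 and 187, Ccl12 at 199 and 531, Ccl3 at 803 and 2062 and Ccl2 at 371 and 889.5. The log2 ratio of Ccl5 went from 2.15 to 1.53 without its top cell. Of these, Ccl2, Ccl3 and Ccl12 had resident-type log2 ratios of 0.12, -0.18 and 0.07. Ccl7 was higher in the WD library in the resident-type class too, by the levels given above. In the low class 5 cells held 74.5% of the Ccl7 UMIs. Il1b was lower, at 2484 and 1382 CPM. Of 20 immediate early genes 18 were positive (median 0.30), with 1 past 2-fold, the chaperone gene Dnajb1 at 89.2 and 608 CPM.

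Some genes of resident macrophages were higher in the WD cells of the low class. Mgl2 stood at 109.8 and 318 CPM (ratio 2.90, 95% counting interval 1.73 to 5.18) and Igf1 at 96.1 and 252 (2.62, 95% counting interval 1.51 to 4.92), with resident-type log2 ratios of -0.00 and -0.16. The list had 2 of 13 members past 2-fold and a median of 0.19. Klf2 was higher at 281 and 717 CPM and Runx3 lower at 165 and 60.6. The makeup of the low class also differed, since cluster 4 held 47.6% of its chow diet and 34.0% of its WD cells and cluster 0 held 4.76% and 20.6%, and the part of that in these ratios was not tested.

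**Figure D5:**
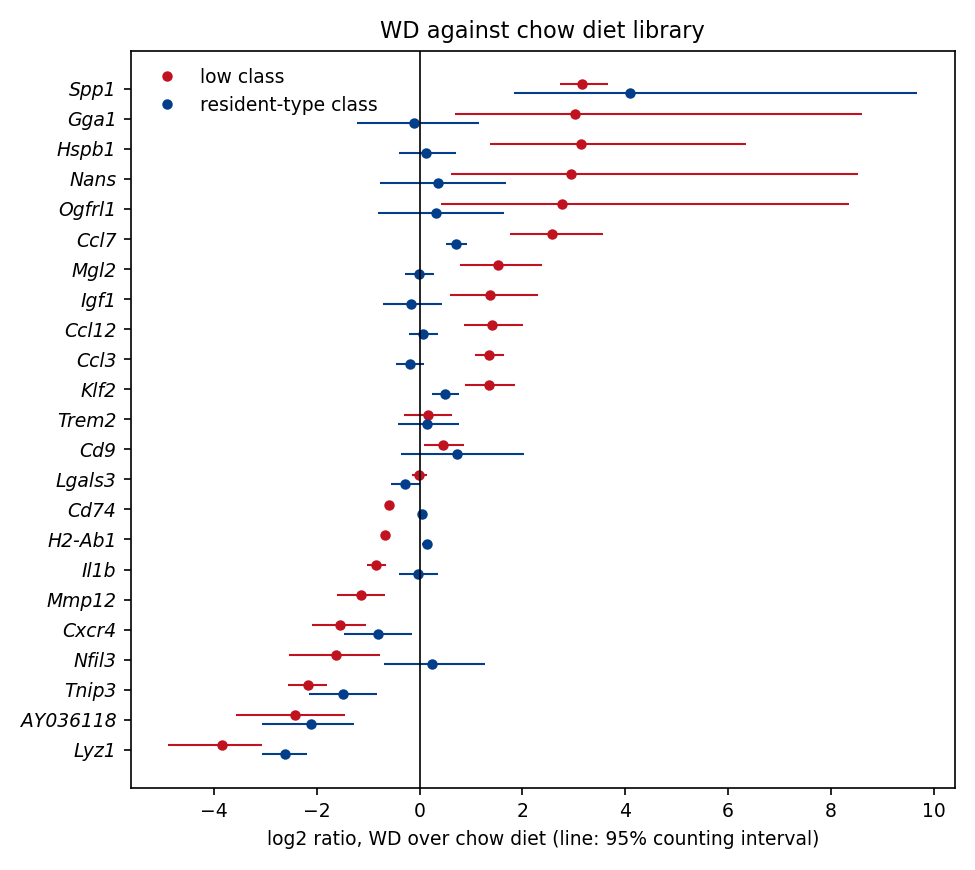
Log2 ratio of WD over chow diet for 23 genes in the low class (red) and the resident-type class (blue), with 95% counting intervals as lines; genes under 30 UMIs in the resident-type class have no blue point. Spp1 lies at 3.17 in the low class and at 4.09 in the resident-type class, the latter from 1 chow diet UMI. Trem2 lies near 0 in both (0.16 and 0.15), and Lyz1 at -3.85 and -2.62.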

How the data were processed

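Both libraries were deposited as UMI counts per gene and cell barcode. Per the submitters' processing notes, Cell Ranger and STAR with the mm10 build were used, with no version stated. Kept cells were classed by the sums given above, and 0 further sample columns were left unused. UMIs were summed per class and library for 4 classes (8 sums) and tested with edgeR 4.0.16 in R 4.3.3 (quasi-likelihood, TMM factors, library as a term, genes with at least 10 UMIs, Benjamini-Hochberg adjustment). Because the estimated prior degrees of freedom were infinite, DESeq2 1.42.0 and a robust spread are given beside it, the latter added after seeing the data. Only the edgeR and DESeq2 fits were run on simulated sums. These were drawn with the spread that edgeR had fitted, so they cannot show whether that spread is too small.

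CPM are relative to the UMIs of the class. Diet log2 ratios have 0.5 UMIs added and ratios have exact counting intervals, and a group at 0 is set at a floor of 3 UMIs over the group. Doublets were sought with Scrublet (scanpy 1.11.5) and no cell was removed for it. Genes named are the 12 with the largest log2 fold changes in each direction against the resident-type class and 6 against each other class, among genes called, with at least 30 UMIs, the same direction in both libraries and no part in the class rules. Between diets they are the 8 with the largest ratios each way among genes with at least 30 UMIs, an interval excluding 1 and a sign that holds without the top cell. Up to 6 members of each list with the most UMIs, and defining markers, were added. Other list members that were called are named too, chosen after their values were seen. A few genes that this rule names are not reported here. The members and lists were chosen with earlier results of these data known. Alternatives were other scalings, filters, tests, thinning to 1500 UMIs, class limits and leaving out mixed cells or a library.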

Additional observations from a re-analysis of the deposited data

How the results depend on the processing

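The number of genes called against the resident-type class, 337, was 54 by DESeq2, 161 with at least 30 UMIs, 114 on sums thinned to 1500 UMIs per cell and 49 when classes were also taken after thinning. Against the Thbs1/F10 cells, 469 became 116 by DESeq2, 180 on thinned sums and 155 with thinned classes. Against the Cd209a cells, 750 became 192 by DESeq2 (143 higher and 49 lower), 276 with only those 2 classes in the fit, 221 on thinned sums and 189 with thinned classes. Thinned sums hold fewer UMIs; the cause of the other changes was not tested.

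The low class was 4.02% of chow diet and 6.24% of WD kept cells with thinned classes, and of WD kept cells 3.69% when held to 0 resident UMIs and 5.92% when allowed 3. Among C1q macrophages it was 70.6% and 59.4% with thinned classes, and in the WD library 36.0% at 0 and 57.8% at 3 or fewer. Between diets 84 genes passed 2-fold on thinned sums in place of 209.

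Directions reversed with thinned classes for Cxcl2 (0.27) and Retnla (0.34) against the resident-type class and for Cd9 (-0.031) and Spp1 (-1.21) against the Thbs1/F10 cells. Without mixed cells they reversed for S100a8 (0.45) and Spp1 (-1.11) against the latter. Leaving out 1 library gave Lpl -0.37 to 2.76, Ccl3 -0.19 to 1.36, Areg -2.73 to 4.12 and H2-Ab1 -0.020 to 0.79 against the resident-type class, and Spp1 -1.04 to 1.5 against the Thbs1/F10 cells. Between diets Cd9 was -0.065 as a mean over cells and Acp5 1.01 without its top cell. The cause was not tested. Of 2303 values of single genes under other settings 1977 kept direction and side of the threshold. Leaving out Scrublet calls, 1 of these settings, took no cell from any class, so its values had to stay the same. No paired analysis was possible because each diet has 1 library. Between classes the library is a term of the test, so those sums are already paired by library.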
